A study of Mus musculus with 12 samples.

Results

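The collagen genes of cultured adult mouse dorsal root ganglion (DRG) neurons were taken as all gene names in the deposited tables made of Col, a number, the letter a and a number. This gave 37 genes, all 37 in the soma table and 34 also in the neurite table. Of the 16617 gene names with transcripts in both tables, 15990 passed the filter on low counts and were tested, among them 33 of the 34 collagen genes. Col20a1, with 0 to 12 counts per library, did not pass.

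The cultures came from C57B6 mice, the ganglia of 1 mouse per culture, and grew for 3 days on laminin-coated inserts with 1 µm pores, which neurites cross while the cell bodies stay above. There were 4 groups of 3 libraries each: neurites of GAR+/- cultures (het), neurites of GAR+/+ cultures (WT), soma of het cultures and soma of WT cultures. The study concerned nucleolin, an RNA-binding protein, and GAR names its glycine- and arginine-rich domain. Per the labels' protocols the ganglia were dissociated with papain, collagenase-II and dispase-II, enzymes that cut proteins, and the cells passed a Percoll cushion with no sort named. Both genotypes were prepared by this protocol, and the part of the dissociation in the collagen levels was not tested.

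Collagens are secreted proteins whose chains wind around each other into a helix. The fibrillar chains build the cables of connective tissue, the type IV chains build the sheet-like network of basement membranes, and FACIT chains (fibril-associated collagens with interrupted helices), multiplexins, beaded and network chains decorate or link them. In peripheral nerve and ganglia, Schwann cells, satellite glia, fibroblasts and vessel cells are known collagen producers, and Schwann cells need a basement membrane to wrap axons.

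The libraries held between 14965973 and 32434916 counts, so 3 counts, taken as the limit of detection, stood for 0.0905 to 0.21 CPM. CPM here is a gene's counts scaled to a common library size, with library totals adjusted by TMM. The targeted gene, Ncl, had 332 to 426 CPM in het neurites, 322 to 463 in WT neurites, 251 to 290 in het soma and 218 to 239 in WT soma. The tables count its transcript as a whole and so do not check the GAR genotype. A gene was called when its adjusted p, from edgeR's quasi-likelihood test with Benjamini-Hochberg adjustment over all genes tested, was under 0.05. The labels state 3 independent biological repeats.

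The genes on which the comparisons turned are shown here by the bases upstream of their start sites, so that their sequence can be read beside their values. They are Col28a1, Col18a1 and Col4a6, which were called between the genotypes, and Col27a1 and Col24a1, which had the smallest p of the fibrillar chains between compartments. The sequences are from RefSeq (GRCm38.p6), 5′ to 3′ on the gene's own strand, up to 250 bases and ending before the transcript. Capitals mark 4 motifs searched on both strands: GGGCGG for the GC box, CCAAT for the CCAAT box, TATAAA for the TATA box, and ACAAAG as a core of the SOX motif.
Col28a1, chr6:8192618-8192867, minus strand: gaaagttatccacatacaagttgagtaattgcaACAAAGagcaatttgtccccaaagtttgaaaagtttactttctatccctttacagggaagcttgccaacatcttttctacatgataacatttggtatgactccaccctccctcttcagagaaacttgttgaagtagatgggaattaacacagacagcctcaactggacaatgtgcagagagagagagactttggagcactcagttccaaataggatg
Col18a1, chr10:77166549-77166780, minus strand: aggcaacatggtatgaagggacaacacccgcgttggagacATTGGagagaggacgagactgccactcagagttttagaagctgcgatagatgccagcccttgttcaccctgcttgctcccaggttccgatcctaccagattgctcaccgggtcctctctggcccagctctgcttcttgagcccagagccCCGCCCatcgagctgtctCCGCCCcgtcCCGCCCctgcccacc
Col4a6, chrX:141474077-141474326, minus strand: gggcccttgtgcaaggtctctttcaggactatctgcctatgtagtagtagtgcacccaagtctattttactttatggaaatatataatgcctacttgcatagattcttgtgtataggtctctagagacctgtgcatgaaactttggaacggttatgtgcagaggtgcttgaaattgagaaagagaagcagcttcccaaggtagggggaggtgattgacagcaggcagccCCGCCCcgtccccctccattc
Col27a1, chr4:63215162-63215411, plus strand: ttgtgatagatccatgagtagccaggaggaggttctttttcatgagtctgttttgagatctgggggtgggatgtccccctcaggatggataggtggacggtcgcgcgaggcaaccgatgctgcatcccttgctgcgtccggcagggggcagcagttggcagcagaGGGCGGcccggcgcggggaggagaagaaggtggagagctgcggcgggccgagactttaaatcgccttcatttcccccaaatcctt
Col24a1, chr3:145292222-145292471, plus strand: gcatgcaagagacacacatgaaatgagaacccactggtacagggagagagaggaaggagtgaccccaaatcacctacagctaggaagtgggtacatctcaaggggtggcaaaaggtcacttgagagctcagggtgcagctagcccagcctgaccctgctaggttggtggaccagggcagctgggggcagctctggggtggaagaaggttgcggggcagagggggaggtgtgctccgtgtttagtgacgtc

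The Col28a1 window held 1 ACAAAG and none of the other motifs, that of Col18a1 held 3 GGGCGG and 1 CCAAT, those of Col4a6 and Col27a1 held 1 GGGCGG each, and that of Col24a1 held none of the 4 motifs. Over all 32851 RefSeq windows of 250 bases, GGGCGG was in 32.7%, CCAAT in 33.8%, TATAAA in 12.4% and ACAAAG in 16.5%. The 31 collagen genes matched to the RefSeq table had 33 windows. Of these windows, 21 held GGGCGG (in 20 genes), 11 CCAAT, 3 TATAAA and 4 ACAAAG. A match describes letters in the window and not a bound site. The Col27a1 window lies upstream of the start site of a counted transcript, but within the gene as annotated, which begins at 63214004.

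A few chains made up most of the collagen RNA. Per kilobase of transcript, the scale on which levels of different genes are compared here, Col4a1, Col5a2 and Col28a1 together took 56% to 63.3% of the summed collagen level in the 12 libraries. Col4a1 codes for the main chain of type IV collagen, Col5a2 for a chain of type V, which co-assembles into fibrils of type I, and Col28a1 for a beaded-type collagen known from peripheral nerve in the mouse. With Col1a2, a chain of type I, and Col8a1, a network-forming chain of type VIII, the share was 73.8% to 85.9%.

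Col4a1 averaged 217 CPM per kilobase in het neurites, 461 in WT neurites, 198 in het soma and 334 in WT soma (n = 3 each). Col5a2 averaged 197 CPM per kilobase in het neurites, 499 in WT neurites, 157 in het soma and 320 in WT soma. Col28a1 averaged 181 CPM per kilobase in het neurites, 382 in WT neurites, 120 in het soma and 212 in WT soma. Col5a2 stood above Col4a1 in WT neurites and below it in the other 3 groups, and these neighbours in the order did not differ beyond their spread in WT neurites, where library 1 held the highest Col5a2 value. At the other end, Col4a6, Col4a5, Col20a1 and Col4a4 each averaged at most 0.209 CPM per kilobase in any group. Type IV chains thus stood at the top and at the bottom of the order.

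By class, the 9 fibrillar chains measured in both tables took 40.9% ± 2.17 of the summed level per kilobase in het neurites, 41.2% ± 8.78 in WT neurites, 42.1% ± 1.82 in het soma and 43.5% ± 8.02 in WT soma (SD, n = 3 each). The 5 basement membrane chains took 28.1% ± 1.33 in het neurites, 28% ± 2.02 in WT neurites, 31% ± 0.575 in het soma and 29.6% ± 2.99 in WT soma. The 9 beaded, network and anchoring chains took 28.6% ± 2.26 in het neurites, 28.7% ± 6.26 in WT neurites, 24.5% ± 1.51 in het soma and 24.6% ± 4.7 in WT soma. The FACIT, multiplexin and transmembrane chains together were the small remainder. For these 3 large classes, the genotype means within a compartment differed by less than the SD of the WT libraries.

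**Figure D1:**
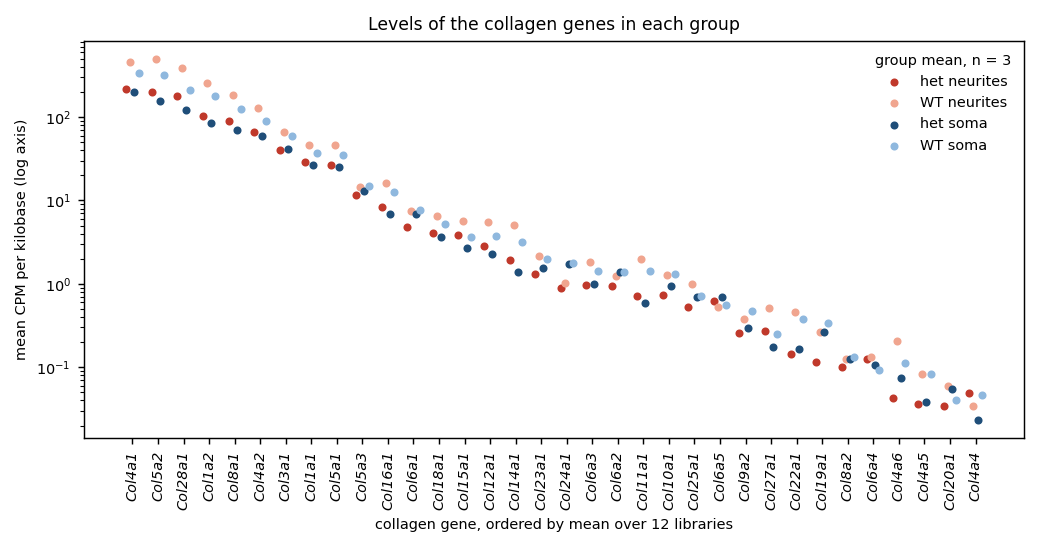
Mean level of the 34 collagen genes in both tables, in CPM per kilobase on a log axis, with 1 point per group (n = 3 libraries each) and genes ordered by their mean over 12 libraries. Col4a1, Col5a2 and Col28a1 lead, and for most of the abundant genes the het points lie below the WT points of the same compartment.

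Chains that are built into the same molecule can be set side by side per kilobase. Col4a1 and Col4a2, which code for the chains of the common type IV network, stood in a ratio of 3.23 to 3.76 in all 12 libraries. The ratio was 3.23 to 3.28 in het neurites and 3.43 to 3.76 in WT neurites, and 3.24 to 3.4 in het soma and 3.61 to 3.75 in WT soma, so the genotypes did not overlap in either compartment. These genes lie head to head on chromosome 8 (GRCm38), with start sites at 11312826 on the minus strand and 11312805 on the plus strand, and their opening exons overlap by 22 bases. Whether strand was used in the authors' counting is not stated in the labels or file headers. The ratio of Col1a2 to Col1a1, the chains of type I, ran from 2.53 to 6.2, and that of Col5a2 to Col5a1 from 5.34 to 18.6, with the highest value of each in WT neurites 1.

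Between genotypes in neurites, 3 collagen genes were called and all 3 were lower in het neurites: Col28a1, Col18a1 and Col4a6. This was 3 of 33 collagen genes, beside 3.27% of all 15990 genes called in either direction, with 2.78% called lower and 0.494% called higher. Across the 33 collagen genes, 31 had a log2 fold change of het over WT below 0, beside 51.5% of all genes, and the median was -0.80, beside -0.01 over all genes. At an unadjusted p under 0.05 there were 18 collagen genes, all lower in het, beside 20.9% of all genes. In bulk libraries, fewer cells of a type and less RNA per cell cannot be told apart.

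Col28a1 (ENSMUSG00000068794.7, chr6:7997808-8192617, minus strand, GRCm38) had 1011, 673 and 534 CPM in het neurites, against 1491, 1202 and 1981 CPM in WT neurites. Every het neurite library was below every WT neurite library. Its log2 fold change was -1.08 ± 0.23 (SE), with an adjusted p of 0.0298.

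Col18a1 (chr10:77052178-77166548, minus strand) codes for a multiplexin of basement membranes whose end fragment is endostatin. It had 26.8, 18.5 and 15.8 CPM in het neurites, against 35.9, 28.1 and 35.1 CPM in WT neurites. The groups did not overlap, with het neurites 1 close under WT neurites 2. Its log2 fold change was -0.70 ± 0.18 (SE), with an adjusted p of 0.0434.

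Col4a6 (chrX:141165403-141474076, minus strand) codes for a minor type IV chain. It had 10, 2 and 6 counts in het neurites, against 26, 10 and 43 counts in WT neurites. In CPM the values were 0.531, 0.0767 and 0.247 in het neurites, against 1.82, 0.673 and 1.67 in WT neurites, so the groups did not overlap, and het neurites 2 was under its limit of detection. Its log2 fold change was -2.36 ± 0.61 (SE), with an adjusted p of 0.0483, and rests on these low counts.

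None of these 3 calls held whichever library was left out. Without het neurites 2, het neurites 3, WT neurites 1, WT neurites 3 or het soma 1, no collagen gene was called in neurites, and the adjusted p of Col28a1 was then 0.138, 0.132, 0.0926, 0.0923 and 0.0512 in that order. Without het soma 2, het soma 3 or WT soma 3, Col28a1 was the 1 collagen gene called. Without WT soma 2, Col18a1 had an adjusted p of 0.0506, and without WT soma 1, Col4a6 had 0.0601. Without het neurites 1 there were 10 calls, and without WT neurites 2 there were 11. The shares of all genes called in these fits are not given here. The counts therefore show how the calls depended on single libraries and are not read as a result about collagens. The log2 fold change of Col28a1 ran from -1.37 to -0.87 over all alternatives, that of Col18a1 from -0.95 to -0.55 and that of Col4a6 from -3.09 to -1.87.

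**Figure D2:**
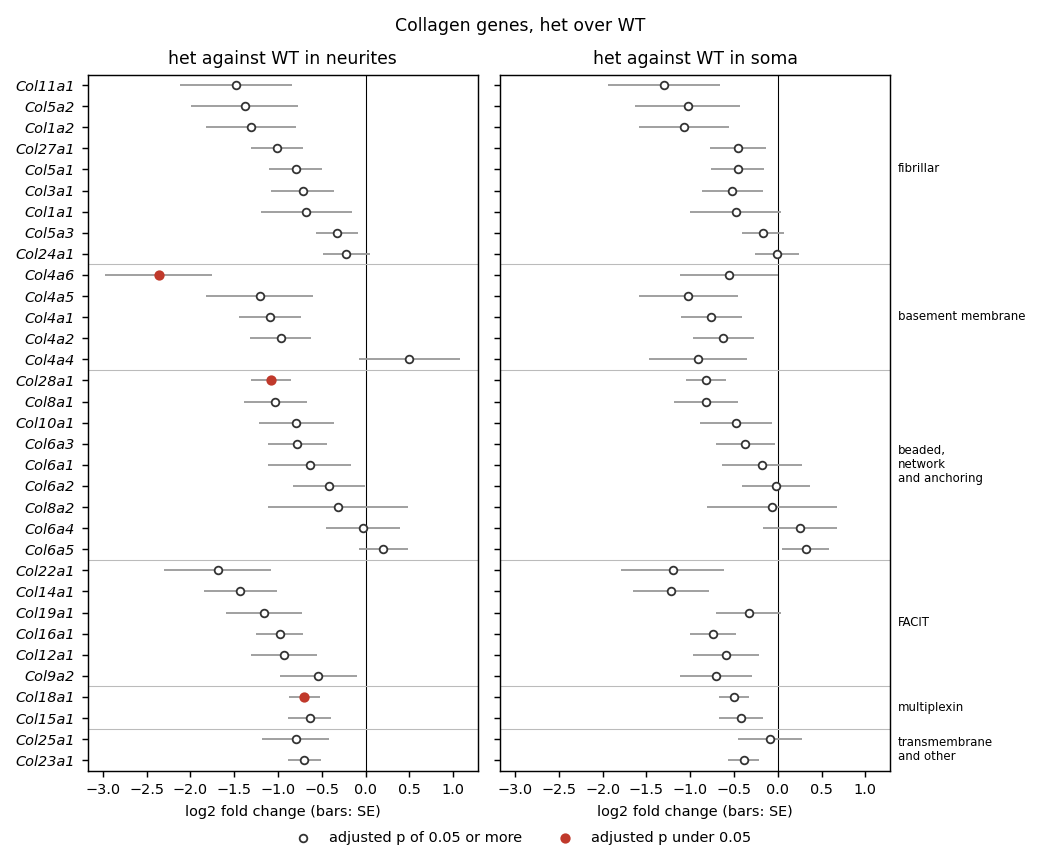
Log2 fold change of het over WT for the 33 tested collagen genes, grouped by class, in neurites (left) and soma (right), with bars of 1 SE and filled points for an adjusted p under 0.05. In each compartment 31 of 33 points lie below 0, and Col28a1, Col18a1 and Col4a6 are filled in neurites.

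The abundant chains that were not called had lower means in het neurites with a wide spread. Col5a2 had 1790, 842 and 812 CPM in het neurites, against 5536, 1196 and 2231 CPM in WT neurites (log2 fold change -1.38 ± 0.61, adjusted p = 0.239). Col1a2 had 851, 394 and 364 CPM in het neurites, against 2147, 594 and 1245 CPM in WT neurites (-1.31 ± 0.51, adjusted p = 0.191). Both genes were highest in WT neurites 1, and in both het neurites 1 was above WT neurites 2.

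Col4a1 had 2114, 1109 and 939 CPM in het neurites, against 3893, 1741 and 3216 CPM in WT neurites (-1.09 ± 0.35, adjusted p = 0.115). Col4a2 had 624, 331 and 276 CPM in het neurites, against 1011, 492 and 913 CPM in WT neurites (-0.97 ± 0.35, adjusted p = 0.152). Col8a1 had 679, 379 and 331 CPM in het neurites, against 1389, 536 and 915 CPM in WT neurites (-1.03 ± 0.36, adjusted p = 0.145). In all 3 genes het neurites 1 lay above WT neurites 2 and the groups overlapped there.

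Of the FACIT chains, Col16a1, which binds to fibrils, had 7.38, 4.53 and 3.88 CPM in het neurites, against 10.4, 6.59 and 13.7 CPM in WT neurites (-0.98 ± 0.27, adjusted p = 0.0556). Col12a1, which coats type I fibrils, had 15.4, 7.1 and 6.68 CPM in het neurites, against 24.6, 9.69 and 20.9 CPM in WT neurites (-0.93 ± 0.38, adjusted p = 0.199). Of the transmembrane chains, Col23a1 had 5.63, 9.25 and 7.59 CPM in het neurites, against 9.65, 14.4 and 12.5 CPM in WT neurites (-0.70 ± 0.19, adjusted p = 0.0553). Only Col23a1 of these 3 had groups that did not overlap.

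In all, 8 of the 33 collagen genes had every het neurite library below every WT neurite library, beside 10.8% of all genes. They were Col18a1, Col19a1, Col23a1, Col27a1, Col28a1, Col4a5, Col4a6 and Col6a3. No collagen gene had the opposite order, beside 7.53% of all genes. The 2 with a log2 fold change above 0 were Col4a4, at 0.50 ± 0.58, and Col6a5, at 0.20 ± 0.28, with adjusted p of 0.665 and 0.737. Col4a4 had 9, 11 and 14 counts in het neurites, against 3, 7 and 9 counts in WT neurites, and these ranges met at 9.

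In the authors' deposited table for neurites, which compares transcripts, 27 of 74 collagen transcripts of 18 genes had a false discovery rate under 0.05, beside 3.02% of all 32838 transcripts. All 27 were lower in het, beside 2.64% of all transcripts. The main Col28a1 transcript had a log2 fold change of -1.07 with a false discovery rate of 5.55e-05 in the authors' deposited table, and that of Col4a6 had -2.37 with 0.00174. The edgeR test behind that table is not given in the sources used here.

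**Figure D3:**
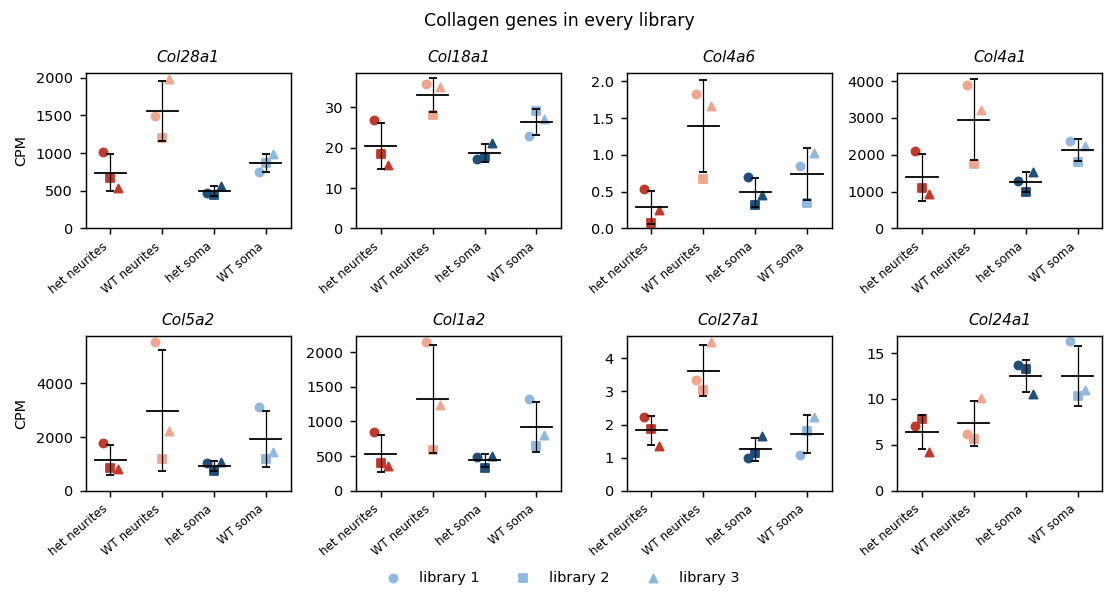
CPM of 8 collagen genes in every library, with group means (lines) and SD (bars, n = 3), het left of WT within neurites and within soma. Col28a1, Col18a1 and Col4a6 are lower in all het neurite libraries. Col5a2 and Col1a2 are highest in WT neurites 1, and among soma libraries in WT soma 1.

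Between genotypes in soma no collagen gene was called, and no gene at all among the 15990 (0% called), while 5 collagen genes and 9.16% of all genes had an unadjusted p under 0.05. All 5 were lower in het soma. Of the 33 collagen genes, 31 had a log2 fold change below 0, beside 48.5% of all genes, with a median of -0.50, beside 0.01 over all genes. In 14 of 33 every het soma library was below every WT soma library, beside 11.9% of all genes. None was above, beside 8.86% of all genes.

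Col28a1 had 470, 437 and 564 CPM in het soma, against 754, 861 and 988 CPM in WT soma. The groups did not overlap, and the log2 fold change was -0.82 ± 0.23 (SE) with an adjusted p of 0.191. Col18a1 had 17.1, 17.8 and 21.1 CPM in het soma, against 22.8, 29.2 and 27.1 CPM in WT soma (-0.50 ± 0.17, adjusted p = 0.33). Col16a1 had 4.16, 4.58 and 4.95 CPM in het soma, against 8.27, 6.2 and 8.41 CPM in WT soma (-0.74 ± 0.26, adjusted p = 0.34). All 3 genes were lower in every het soma library.

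The call in soma depended on which libraries set the spread. When the 6 soma libraries were fitted alone, edgeR called 5 collagen genes, Col14a1, Col16a1, Col28a1, Col4a1 and Col8a1, beside 2.49% of the 15573 genes tested there. All 5 were lower in het soma, and Col28a1 then had a log2 fold change of -0.82 ± 0.12 with an adjusted p of 0.00887. In neurites the same kind of fit called 0 collagen genes and 0% of 15028 genes. In the authors' deposited table for soma, 24 of 79 collagen transcripts of 15 genes had a false discovery rate under 0.05, beside 4.24% of all 35313 transcripts. All 24 were lower in het, beside 3.45% of all transcripts.

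The replicate numbers paired het and WT soma by the correlation of their libraries, and with number as a block edgeR called no collagen gene in soma, beside 3.25% of all genes. That block was fitted over all 12 libraries, including het and WT neurites, whose numbers were not taken to pair them. It was not a fit of paired soma libraries alone. The test of the difference between compartments, the interaction of genotype and compartment, called no collagen gene and no gene at all (0% called), with 1 collagen gene and 1.26% of all genes at an unadjusted p under 0.05. That gene was Col4a6, at -1.80 ± 0.83 with an adjusted p of 1. Col4a4 had 1.42 ± 0.81 and Col19a1 -0.83 ± 0.57, both with an adjusted p of 1. The median over the 33 collagen genes was -0.25, with 31 below 0, beside 53.2% of all genes. It ran from -0.54 without het neurites 1 and -0.50 without WT neurites 2 to -0.13 without het soma 3, and was -0.41 without het soma 2, -0.14 without het neurites 3 and -0.15 without WT soma 2.

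Between neurites and soma the direction differed from chain to chain, with Col27a1 and Col28a1 higher and Col24a1 lower on average in neurites of both genotypes. In het cultures the median log2 fold change of neurites over soma was 0.06, with 16 of 33 below 0, beside 50.8% of all genes. That median turned to -0.18 without het neurites 1 and to -0.07 without het soma 2, and was 0.25 without het soma 3 and 0.21 without het neurites 3, so its sign turned with the libraries. In WT cultures it was 0.33, with 10 of 33 below 0, beside 49.3% of all genes. It was 0.20 without WT neurites 1 or WT neurites 3, 0.22 without WT soma 2 and 0.58 without WT neurites 2. No collagen gene was called in het cultures, beside 0.638% of all genes, or in WT cultures, beside 3.1%. In WT cultures 3 of 33 had every neurite library above every soma library, Col15a1, Col27a1 and Col28a1, beside 12.4% of all genes. Col24a1 had the opposite order there, beside 9.96%.

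Col28a1 had 1491, 1202 and 1981 CPM in WT neurites, against 754, 861 and 988 CPM in WT soma (0.84 ± 0.23, adjusted p = 0.0676). Col27a1, a fibrillar chain known from cartilage, had 3.36, 3.03 and 4.51 CPM in WT neurites, against 1.08, 1.82 and 2.23 CPM in WT soma (1.11 ± 0.30, adjusted p = 0.0596). Col24a1, a minor fibrillar chain, had 6.23, 5.65 and 10.1 CPM in WT neurites, against 16.3, 10.3 and 11 CPM in WT soma (-0.76 ± 0.26, adjusted p = 0.13). The first 2 were higher and Col24a1 lower in every WT neurite library.

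Same-numbered neurite and soma libraries deviated together in WT cultures, and with the culture as a block edgeR called these 3 genes of 33. That count was near the share of all genes, 9.31%, and the fit also paired the het libraries by number. The log2 fold changes were then 0.82 ± 0.19 for Col28a1 (adjusted p = 0.0218), 1.11 ± 0.29 for Col27a1 (0.02) and -0.77 ± 0.20 for Col24a1 (0.0208). Without the block, Col28a1 was called without het neurites 1 or het neurites 3 (1 call each), and Col27a1 and Col28a1 without WT neurites 2 (2 calls). The main fit called 3.1% of all genes here, and the shares in the fits without 1 library are not given. These few calls are therefore not read as a result about collagens.

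In het cultures, Col24a1 had 7.06, 7.79 and 4.25 CPM in neurites, against 13.7, 13.3 and 10.5 CPM in soma (-0.98 ± 0.26, adjusted p = 0.111). Col19a1, a FACIT-like chain, had 0.69, 0.844 and 0.371 CPM in het neurites, against 1.87, 1.51 and 0.963 CPM in het soma (-1.20 ± 0.41, adjusted p = 0.203). These were the 2 collagen genes lower in every het neurite library, beside 10.6% of all genes. Col28a1 had 1011, 673 and 534 CPM in het neurites, against 470, 437 and 564 CPM in het soma (0.59 ± 0.23, adjusted p = 0.26), and library 3 broke the order. In these compartment comparisons some cell type markers were called too, beside 3.1% of all genes in WT cultures and 0.638% in het. In WT cultures 2 of 12 Schwann cell markers, Prx and Sox10, were higher in neurites. So were 1 of 11 of satellite glia, Sox2, and 1 of 11 of pericytes and smooth muscle, Des. Ngfr, also on the Schwann cell list, was lower in neurites of both genotypes. Of 14 neuronal markers 3, Rbfox3, Calca and Uchl1, were lower in WT neurites. The part of these cell types in the result was not tested. The neurite groups enter these comparisons and those between genotypes, so the values of a gene in them are not independent.

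**Figure D4:**
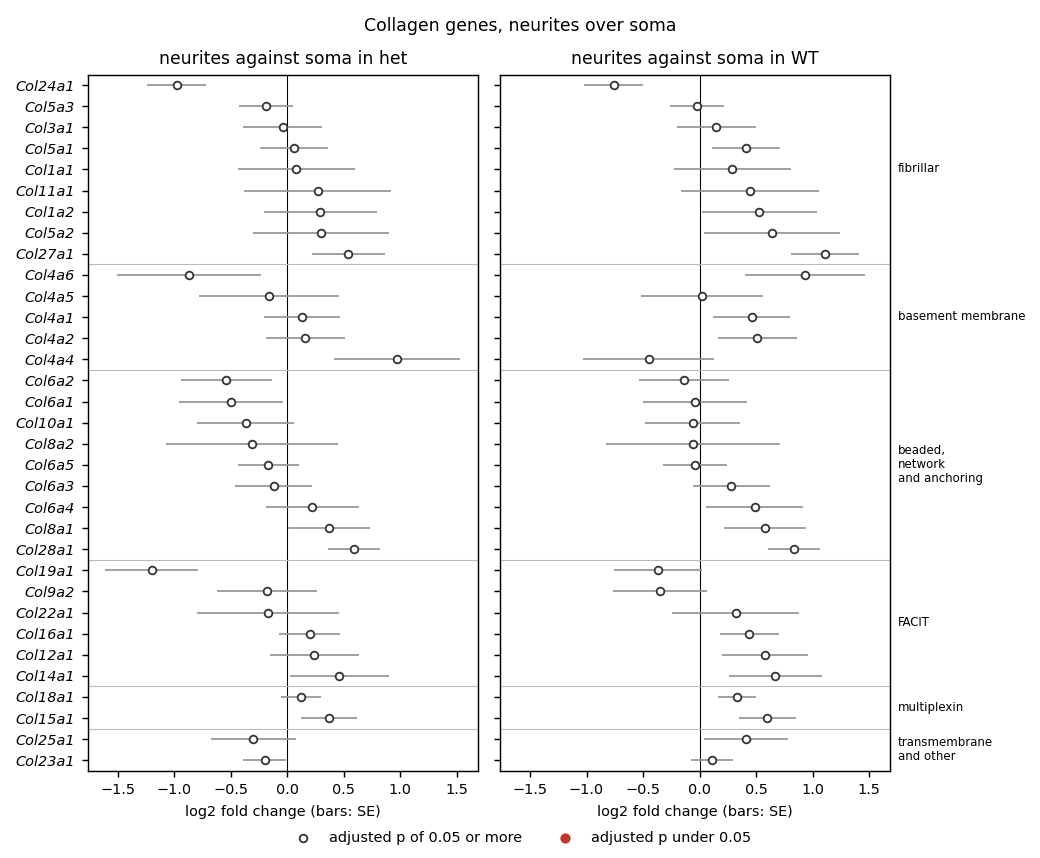
Log2 fold change of neurites over soma for the 33 tested collagen genes in het (left) and WT cultures (right), with bars of 1 SE. Col24a1 lies below 0 in each genotype, and Col27a1 and Col28a1 lie above 0.

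Other tools moved these counts. DESeq2's Wald test, which made more false calls than its limit in simulated data, called 9 collagen genes between genotypes in neurites beside 7.5% of all genes, Col28a1 and Col18a1 among them but not Col4a6, and 1 in soma, Col28a1, beside 1.97%. It called 1 between compartments in het, Col24a1, beside 3.05%, and 2 in WT, Col24a1 and Col28a1, beside 6.93%. Limma voom called 4 between genotypes in neurites, Col14a1, Col16a1, Col18a1 and Col28a1 but not Col4a6, beside 3.81%, 0 in soma, 0 between compartments in het beside 0.488%, and 1 in WT, Col27a1, beside 2.86%. Fits of 6 libraries alone called 0 between compartments in het beside 0.589% and 0 in WT beside 0.26%. With replicate number as a block, edgeR called 1 between compartments in WT, Col27a1, beside 9.44%.

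Collagens are modified, secreted, trimmed, bound and degraded by other proteins, and these were followed as lists, whose counts stand beside 2.78% of all genes called lower in het neurites and 0.494% called higher. In neurites, of 25 tested genes of collagen modification, folding and export, 1 was lower in het, P3h4, a subunit of the complex that modifies collagen lysines (-0.58 ± 0.15, adjusted p = 0.0495), a count near that share, and the list's median was -0.48. None of 14 genes of processing and crosslinking was called (median -0.56), and Bmp1, which trims procollagen, had -0.68 ± 0.18 with an adjusted p of 0.0564.

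Of 10 collagen receptors, 3 were lower in het neurites, beside 2.78% of all genes. These were Ddr2 (-0.81 ± 0.15, adjusted p = 0.0223) and Ddr1 (-0.94 ± 0.22, 0.0346), receptor kinases for collagen, and Adgrg6 (-1.06 ± 0.23, 0.0353), an adhesion receptor needed for Schwann cell myelination. Of 13 genes of collagen turnover, 3 were lower, beside the same 2.78%, the inhibitor Timp3 (-0.85 ± 0.18, 0.0278) and the proteases Mmp14 (-0.90 ± 0.19, 0.0298) and Fap (-0.93 ± 0.22, 0.0354). None of 14 basement membrane partners was called (median -0.84), and of 15 genes of the fibril-associated matrix 1 was lower, Matn2 (-1.12 ± 0.27, 0.0468, median -0.72). In soma none of these lists had a call.

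Between compartments, Ddr2 was higher in neurites in het cultures (0.83 ± 0.16, adjusted p = 0.0371) and in WT cultures (1.22 ± 0.16, 0.00382). Sec24d, part of the coat of the vesicles that export procollagen, was higher in WT neurites (0.44 ± 0.10, 0.0316). No other gene of these 6 lists was called between compartments. Over all genes, 0.638% were called in het cultures and 3.1% in WT cultures, so these few calls are not read as a trait of the lists.

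Markers of non-neuronal cells moved in the same comparison as the collagens, and their counts too stand beside 2.78% of all genes called lower and 0.494% called higher. In neurites, 4 of 11 satellite glia markers were lower in het (Fabp7, Sox2, Apoe and Gja1, median -0.86), 3 of 12 Schwann cell markers (Sox10, Foxd3 and Prx, median -0.63), 3 of 11 of pericytes and smooth muscle (Des, Myh11 and Notch3, median -1.03) and 1 of 12 of fibroblasts (Fbln1, median -0.22). Of the fibroblast markers, 4 had a log2 fold change above 0 in neurites, none of them called. They were Pdgfra at 0.78, Clec3b at 0.69, Dpt at 0.54 and Cd34 at 0.15. Levels were low, with mean CPM in het and WT neurites of 0.551 and 0.32 for Pdgfra and 0.498 and 0.272 for Clec3b. The means were 0.75 and 0.477 for Dpt, and 0.481 and 1.84 for Fbln1. Above 0 and not called were also Aldoc (0.22) and Glul (0.12) of satellite glia. S100b (0.26) of Schwann cells and Rgs5 (0.27) of pericytes and smooth muscle were above 0 too, and not called. None of 9 endothelial markers (median -0.20) or 7 macrophage markers (median 0.35) was called. Of 14 neuronal markers 1 was higher in het neurites, Uchl1 (0.46 ± 0.11, adjusted p = 0.0403), with a median of 0.28. In soma no marker was called. Medians there were -0.67 for satellite glia, -0.46 for Schwann cells, -0.81 for pericytes and smooth muscle, and -0.48 for fibroblasts. They were 0.11 for endothelium, 0.35 for macrophages and 0.17 for neurons. All 12 tested fibroblast markers were below 0 in soma.

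The summed satellite glia markers were 818 to 1012 CPM in het neurites and 1144 to 1408 in WT neurites, and 745 to 810 in het soma and 925 to 996 in WT soma. The summed Schwann cell markers were 1819 to 2296 CPM in het neurites and 2541 to 2638 in WT neurites, and 2154 to 2358 in het soma and 2393 to 2664 in WT soma. In both sums the genotypes did not overlap in either compartment. Glul made up 30.1% to 69.2% of the satellite glia sums and Ngfr 20.7% to 44.1% of the Schwann cell sums. Without these genes the genotypes did not overlap either. Those of fibroblasts were 192 to 234 CPM in het neurites and 248 to 335 in WT neurites, and 174 to 206 in het soma and 227 to 267 in WT soma. Those of pericytes and smooth muscle were 982 to 1646 CPM in het neurites and 1348 to 3359 in WT neurites, and 728 to 1056 in het soma and 1055 to 1930 in WT soma. The fibroblast sums did not overlap between genotypes in either compartment, but Gsn alone made up 73.4% to 85.8% of them. Without Gsn they were 28.9 to 49.9 CPM in het neurites and 38.1 to 79.3 in WT neurites, which overlapped, and 24.7 to 35.3 in het soma and 42.8 to 58.1 in WT soma, which did not. The sums of pericytes and smooth muscle overlapped in both compartments, and Tagln made up 29% to 70% of them. Without Tagln they were 586 to 747 CPM in het neurites and 746 to 1006 in WT neurites, which overlapped. In soma they were then 517 to 558 CPM in het and 652 to 741 in WT, which did not overlap.

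The sums of neuronal markers were 12091 to 15836 CPM in het neurites and 10513 to 13726 in WT neurites, and 15851 to 18792 in het soma and 14215 to 16342 in WT soma. Those of endothelium were 87.7 to 146 CPM in het neurites and 81.5 to 192 in WT neurites, and 123 to 163 in het soma and 103 to 189 in WT soma. Those of macrophages were 123 to 308 CPM in het neurites and 92.1 to 186 in WT neurites, and 193 to 402 in het soma and 150 to 237 in WT soma. These 3 sums overlapped between genotypes in each compartment. No listed marker was at 0 in all libraries, Pecam1 and Csf1r were at 0 in at least 1, and Pi16, Mfap4, Ncmap, Tek, Vwf, Abcc9, Ptprc, Aif1 and Cx3cr1 were not in both tables.

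The summed level of the 34 collagen genes was 8120, 4375 and 3898 CPM in het neurites, against 16914, 6575 and 12067 CPM in WT neurites. In soma it was 4714, 3640 and 5571 CPM in het, against 10131, 6341 and 7856 CPM in WT. The groups overlapped in neurites, where het neurites 1 was above WT neurites 2, and did not overlap in soma. The part of the number of non-neuronal cells in the lower collagen levels was not tested.

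**Figure D5:**
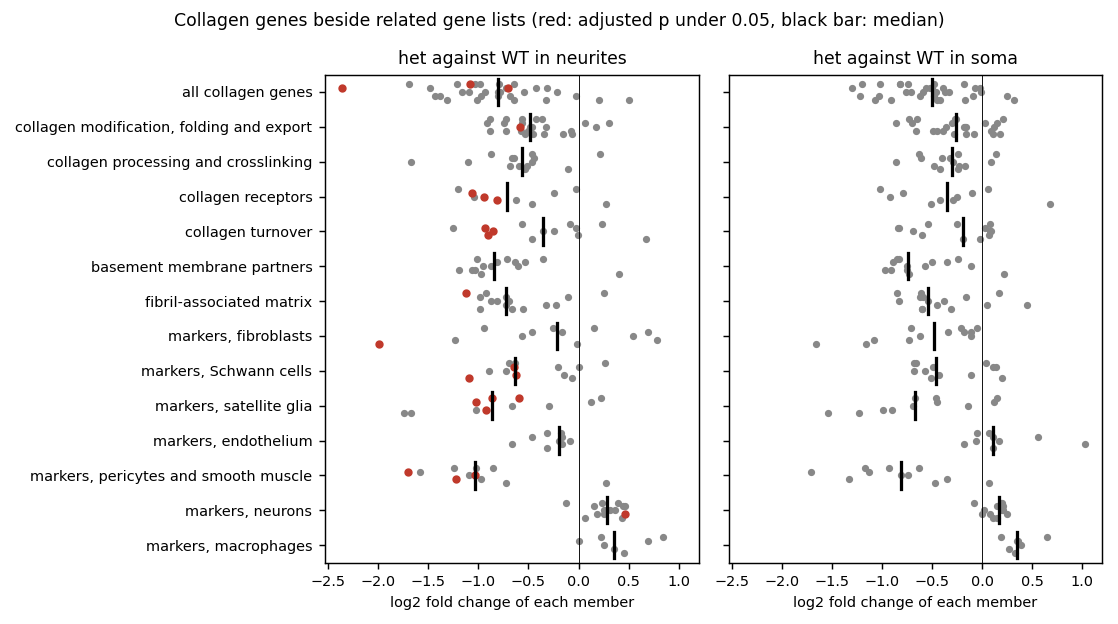
Log2 fold change of het over WT of every tested member of the collagen genes, 6 related lists and 7 marker lists, in neurites (left) and soma (right), with a bar at each median and filled red points for an adjusted p under 0.05. The collagen median is -0.80 in neurites and -0.50 in soma, the satellite glia median -0.86 in neurites, and the neuronal median 0.28 in neurites.

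Some chains were measured in the soma table alone or in neither table. Col11a2, Col4a3 and Col7a1 were in the soma table only, with 3 to 11, 6 to 11 and 1 to 12 counts per soma library in that order, and were not tested. A further 7 protein-coding collagen names of GENCODE M21 were in neither table and are not analysed here: Col13a1, Col17a1, Col26a1, Col2a1, Col6a6, Col9a1 and Col9a3. Col8a2 had 0 counts in WT neurites 2 and 6 to 22 in the other libraries. Col15a1, a multiplexin, had 18.5, 11.9 and 9.16 CPM in het neurites, against 19.4, 15 and 26.7 CPM in WT neurites. Col25a1, a transmembrane collagen, had 3.66, 2.95 and 3.01 CPM in het neurites, against 10.3, 3.23 and 3.46 CPM in WT neurites, where library 1 stood apart.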

How the data were processed

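Ribosome-depleted total RNA was made into stranded libraries, per the labels' protocols. CASAVA 1.8.2 and edgeR were used with mm10 (GRCm38), per the submitters' processing notes, while aligner, counter and strand setting are not given in the sources used. Raw counts per Ensembl transcript were deposited in 1 table per compartment, and each listed transcript reached 5 counts in 3 or more libraries. Per the file headers, each table also holds the authors' log2 fold changes, and a p-value and false discovery rate per transcript. The other 24 per-sample columns were not used.

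Gene counts are sums over the 31420 named transcripts shared by the tables. Between 0.574% and 0.694% of counts had no gene name and were left out. In edgeR 4.0.16 (R 4.3.3), genes passing filterByExpr were TMM-scaled and fitted by robust quasi-likelihood over all 12 libraries with a mean for each group. P-values were adjusted by Benjamini-Hochberg over 15990 genes, and an adjusted p under 0.05 was called. Standard errors were derived from the log2 fold change and its F statistic. Levels per kilobase divide each transcript's CPM by its GENCODE M21 length; 1 Col1a2 transcript had no length there and was left out of them.

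Alternatives were other scalings, no filter, DESeq2 1.42.0, limma 3.58.1 voom, leaving out each library, blocks by replicate number and by culture, the 6 libraries of a comparison alone, and all transcripts of a compartment's table. The main edgeR fit, the block by replicate number, voom and DESeq2, and none of the other alternatives, were tested on simulated data. There the DESeq2 Wald test recovered the known changes but made more false calls than the limit set for the test, and the edgeR and voom fits stayed within it. The limit was kept, and DESeq2 counts are given as an alternative that failed it.

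Same-numbered libraries correlated over genes, as deviations from the group means, at 0.278, 0.341 and 0.23 between WT neurites and soma and at 0.222, 0.273 and 0.159 between het and WT soma, so numbers were taken to pair these. Between het neurites and soma the values were 0.205, 0.256 and 0.0504, and between het and WT neurites 0.142, 0.224 and -0.0373, which was not taken as pairing.

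The members and gene lists were chosen with earlier results of these data known. Genes with values in every library were those called, up to 3 with the smallest p in a comparison without calls, and the 2 highest per kilobase in each class. Others named were chosen after their values were seen.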

Additional observations from a re-analysis of the deposited data

How the results depend on the processing

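Of 33 tested collagen genes, 3 were called between genotypes in neurites. There were 0 with library totals as the scaling, 0 in the 6 neurite libraries alone and 0 with all transcripts of the neurite table, and 0 to 11 over the fits that left out 1 library. DESeq2's Wald test called 9 in neurites, 1 in soma, 1 between compartments in het and 2 in WT, against 3, 0, 0 and 0. In simulated data that test made more false calls than the limit set, which the edgeR and voom fits met. In soma, the 6 libraries alone and all transcripts of the soma table gave 5 calls each, beside 2.49% of all genes in the 6 libraries alone. Between neurites and soma in WT, voom called 1, and leaving out 1 library gave 0 to 2. For fits on all transcripts of a table or without 1 library, the shares of all genes called are not given here. Their counts are not read as a result about collagens.

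With replicate number as a block, 17 collagen genes were called between genotypes in neurites, beside 10.6% of all genes, where the numbers were not taken to pair the libraries and het neurites 3 correlated best with WT neurites 2. The number block gave 1 call between compartments in WT. With the culture as a block, 3 were called between compartments in WT, beside 9.31% of all genes, and 2 in het (Col19a1 and Col24a1), beside 4.2%. In het the pairing criterion failed for number 3, although each library correlated best with its own number. No collagen gene was called for the interaction under any alternative run.

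The collagen median between genotypes ran from -1.10 to -0.65 in neurites and from -0.71 to -0.35 in soma over the fits without 1 library. Between compartments it ran from -0.18 to 0.25 in het and from 0.20 to 0.58 in WT, and for the interaction from -0.54 to -0.13. Of 1681 single gene values recomputed, 1573 kept direction and side of the threshold, 48 passed it newly, 34 no longer passed and 26 turned direction. None of the values that turned was called in its own comparison, a value of 0.00 was not counted as a turn, and the cause was not tested. Col4a6 had 2 to 43 counts per library, and its values rest on these few counts.

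All but 1 of these turns came from leaving out 1 library, with the ranges that follow; the other was Col24a1 between genotypes in soma, at 0.02 under voom. Between genotypes, Col24a1 ran from -0.40 to 0.10 in neurites and from -0.13 to 0.23 in soma, and Col25a1 from -0.26 to 0.14 in soma. Between compartments in het, the range was -0.25 to 0.45 for Col12a1, -0.12 to 0.37 for Col16a1, -0.12 to 0.27 for Col18a1, -0.21 to 0.51 for Col1a2, -0.31 to 0.35 for Col4a1, -0.28 to 0.37 for Col4a2, -0.18 to 0.49 for Col5a2 and -0.01 to 0.56 for Col8a1. All 8 turned without het neurites 1. Between compartments in WT, it was -0.02 to 0.25 for Col23a1, -0.32 to 0.68 for Col25a1 and -0.16 to 1.19 for Col5a2. For the interaction, it was -0.54 to 0.03 for Col15a1, -0.55 to 0.04 for Col16a1, -0.73 to 0.30 for Col1a2, -0.45 to 0.11 for Col24a1, -0.98 to 0.02 for Col25a1, -0.89 to 0.45 for Col5a2 and -0.59 to 0.17 for Col8a1.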
